A study of Homo sapiens with 12 samples.

Results

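The genes described here are 10 components of transforming growth factor beta (TGF-beta) signalling, measured in the human glioblastoma line U-87MG, an established cell line. They are the ligands TGFB1 and TGFB2, the latent-complex protein LTBP1, the receptors TGFBR1, TGFBR2 and TGFBR3, the signal transducers SMAD2 and SMAD3, and the feedback regulators SMAD7 and SKIL. They were taken by platform gene symbol from the deposited table of 12 arrays, and all 10 of the 10 listed were present, each with 1 transcript cluster, out of 13530 genes with a cluster of their own. The series held 3 groups of 4 arrays. All 12 arrays measured U-87MG cells stably carrying the non-targeting control shRNA shCtrl. One group received the solvent DMSO, the second 100 nM FICZ (6-formylindolo[3,2-b]carbazole, a tryptophan photoproduct) and the third 50 µM kynurenic acid (KynA, a tryptophan metabolite), each for 24 h. Both compounds bind AHR, the aryl hydrocarbon receptor, which acts as a transcription factor once a ligand is bound, and the comparisons asked which transcripts differed after exposure to each. The RNA came from 1 cell line, and neither TGF-beta protein nor its release from the latent complex was measured. The labels number the 4 arrays of a group as biological replicates without stating separate cultures or days. The p-values therefore rest on the variation among these arrays, part of which may be technical.

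TGF-beta is secreted in a latent form, bound to its own propeptide and to a latent TGF-beta binding protein, and acts after release. The freed ligand assembles the type II receptor TGFBR2 with the type I receptor TGFBR1, a kinase that phosphorylates SMAD2 and SMAD3, which enter the nucleus with SMAD4. SMAD7, which blocks the type I receptor, and SKIL, which represses SMAD-bound promoters, are themselves induced by the pathway and limit it. Glioblastomas are known for secreting TGF-beta, TGFB2 in particular, where it promotes invasion and suppresses immune cells.

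Windows of 250 bases before a transcription start are shown for the 2 ligands, for SMAD3, which had the largest estimated difference with FICZ, and for SMAD7, the feedback gene. The RefSeq promoter table (GRCh38.p14) held a window for 10 of 10 genes, and for genes with several starts the most upstream one was used. They are chr19:41353923-41354172 (minus strand), chr1:218345086-218345335 (plus strand), chr15:67065352-67065601 (plus strand) and chr18:48950966-48951215 (minus strand), written 5′ to 3′ on the strand of the gene. Capitals mark GCGTG, the core bound by AHR with its partner ARNT, CAGAC, a short SMAD-binding sequence, and GGCGGG, taken here as a GC box, on either strand. Other spellings of these elements were not searched.
TGFB1: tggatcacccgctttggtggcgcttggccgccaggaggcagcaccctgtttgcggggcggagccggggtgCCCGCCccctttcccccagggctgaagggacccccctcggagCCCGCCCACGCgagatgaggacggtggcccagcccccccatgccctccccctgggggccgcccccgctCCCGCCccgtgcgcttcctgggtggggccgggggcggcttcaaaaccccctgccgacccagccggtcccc
TGFB2: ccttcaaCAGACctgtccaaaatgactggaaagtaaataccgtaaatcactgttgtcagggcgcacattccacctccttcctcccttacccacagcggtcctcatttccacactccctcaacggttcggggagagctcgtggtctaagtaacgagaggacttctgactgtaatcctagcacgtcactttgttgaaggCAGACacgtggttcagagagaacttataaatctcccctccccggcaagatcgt
SMAD3: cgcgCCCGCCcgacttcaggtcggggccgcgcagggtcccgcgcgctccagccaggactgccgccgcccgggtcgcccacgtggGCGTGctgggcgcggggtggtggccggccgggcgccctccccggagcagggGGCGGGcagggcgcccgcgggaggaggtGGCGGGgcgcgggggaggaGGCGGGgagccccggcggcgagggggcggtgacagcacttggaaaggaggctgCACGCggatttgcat
SMAD7: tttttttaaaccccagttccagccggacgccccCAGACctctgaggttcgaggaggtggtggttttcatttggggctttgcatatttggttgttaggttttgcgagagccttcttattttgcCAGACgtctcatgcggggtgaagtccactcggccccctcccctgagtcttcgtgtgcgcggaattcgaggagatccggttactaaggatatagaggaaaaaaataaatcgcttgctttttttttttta

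The ligand genes differed in these letters. The TGFB1 window held 1 GCGTG, 0 CAGAC and 3 GGCGGG at 76.8% GC, while that of TGFB2 held 0 GCGTG, 2 CAGAC and 0 GGCGGG at 50.4% GC. SMAD3 held 2 GCGTG and 4 GGCGGG, and SMAD7 held 2 CAGAC alone. Matches of different motifs did not overlap in any of the 10 windows. GCGTG was found in 5 of the 10 windows (TGFB1, TGFBR3, SMAD2, SMAD3 and LTBP1), against 31.9% of 27305 windows of the same length, 1 per gene. CAGAC was found in 4 of 10 (TGFB2, SMAD7, SKIL and LTBP1), against 37.9%, and GGCGGG in 5 of 10, against 42.1%. These are matches of letters only.

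None of the TGF-beta genes tested passed with either ligand. In bulk RNA such as this, fewer cells of a type and less RNA per cell cannot be told apart. Of the 10, 9 were bright enough to be tested, and SMAD7 was not. With FICZ, 0 of the 9 passed limma's moderated test at an adjusted p under 0.05, where 0.852% of the 10795 genes tested did. With KynA, and between FICZ and KynA, 0 of 9 passed as well, where 0.00926% of all genes did in each. At an unadjusted p under 0.05 the count of the 9 was also 0 in each of the 3 comparisons, where the shares of all genes were 14.6% with FICZ, 3.4% with KynA and 8.35% between the ligands. In every comparison the arrays of the groups overlapped for each of the 9 genes, while the groups did not overlap for 7.86% of all genes with FICZ (2.95% above DMSO and 4.92% below it). Without overlap were 2.41% with KynA (1.13% above and 1.28% below) and 4.19% between the ligands (1.4% with FICZ above KynA and 2.79% below).

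Intervals show how large a difference the arrays leave room for. The log2 differences from DMSO lay between −0.14 (SKIL) and 0.17 (SMAD3) with FICZ, and between −0.15 (TGFB1) and 0.09 (LTBP1) with KynA. The 95% intervals of all 9 genes lay within a 1.5-fold change either way in each of the 3 comparisons, as did those of 89.5%, 94.8% and 92.6% of all genes. The widest reached 0.705-fold for SKIL and 1.31-fold for TGFBR2 with FICZ, and 0.71-fold for SKIL and 1.24-fold for TGFBR2 with KynA. The median difference of the 9 genes was −0.06 with FICZ and −0.02 with KynA, beside −0.03 and −0.01 for all genes. For scale, TIPARP, a direct AHR target chosen here after its values were seen, rose by 1.21 ± 0.135 on the log2 scale with FICZ (SE, n = 4; limma adjusted p = 0.000656). Its value with KynA was 0.61 ± 0.135 (adjusted p = 0.468), with all 4 KynA arrays above all 4 DMSO arrays.

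**Figure D1:**
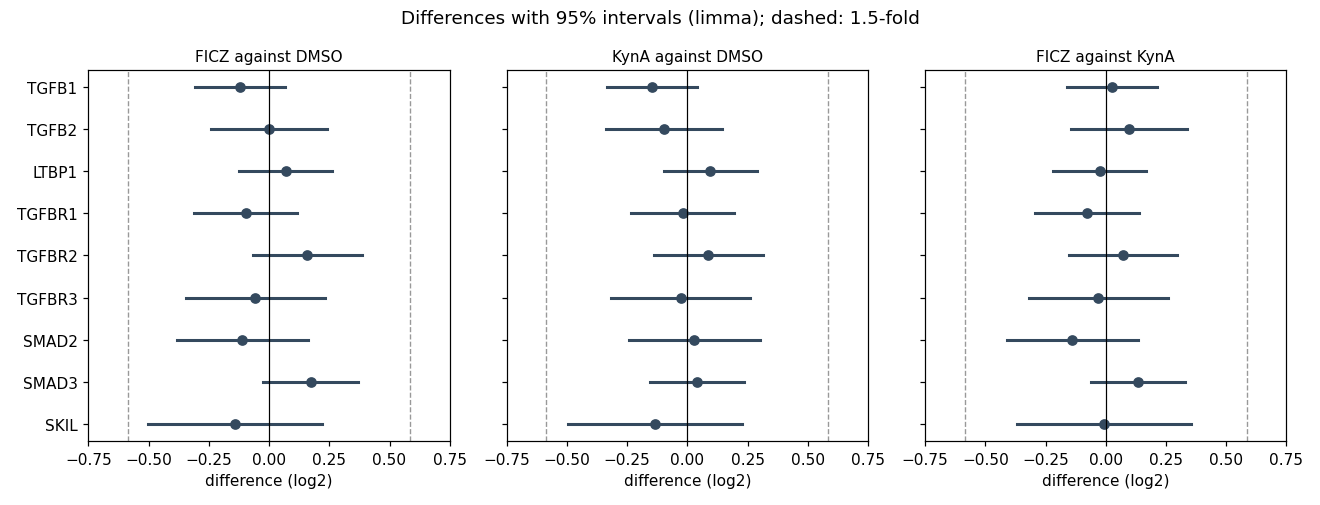
Log2 differences of the 9 tested TGF-beta genes (points) with 95% intervals (lines) for each ligand against DMSO and for FICZ against KynA, n = 4 arrays per group; the x axis is the log2 difference and dashed lines mark a 1.5-fold change. All intervals cross 0 and stay inside the dashed lines; the highest point is SMAD3 with FICZ at 0.17.

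Correlations between arrays lay between 0.938 and 0.975, and their medians lay between 8.30 and 8.33. FICZ 4 stood apart, with a first principal component score of 24.2, above all others (the next being FICZ 2 at 13.6, with 24.7% of the variance) and the lowest array weight (0.551). Of the astroglial, glioma and mesenchymal markers, VIM, CD44, NES and GFAP had a cluster of their own, and none of them passed in any comparison. Their summed linear signal was 10387 to 11235 in DMSO arrays, 9089 to 10798 with FICZ and 9459 to 10873 with KynA. Most of it came from VIM, whose DMSO mean was 13.1 on the log2 scale, beside 10.27 for CD44. NES (8.19) and GFAP (8.03) were no brighter than the myeloid markers AIF1 (8.39) and CSF1R (8.42). The sums of different lists therefore do not rank cell types. S100B, SOX2 and OLIG2 were not analysed here. For other cell types, 3 of 5 myeloid, 1 of 3 endothelial, 3 of 4 epithelial and 3 of 3 neuronal markers had a cluster, and none of those tested passed. The myeloid sum was 775 to 1115 in DMSO, 880 to 1243 with FICZ and 890 to 1081 with KynA. The endothelial sum, from VWF alone, ran 231 to 314, 183 to 314 and 197 to 328 in the same order of groups. Epithelial sums ran 754 to 1086, 762 to 1048 and 793 to 946, and neuronal sums 694 to 799, 682 to 750 and 628 to 786.

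TGFB1, the ligand with the widest distribution in tissues, read 11.23, 11.27, 11.19 and 11.39 on the log2 scale in DMSO arrays 1 to 4. With FICZ it read 11.27, 11.18, 11.10 and 11.06, and with KynA 11.26, 11.20, 10.96 and 11.07. All 4 FICZ arrays and all 4 KynA arrays lay below the DMSO mean of 11.27 ± 0.0842 (SD, n = 4), but both groups overlapped the DMSO range. The difference was −0.12 ± 0.0871 (SE, n = 4; 95% interval −0.31 to 0.07; limma adjusted p = 0.547) with FICZ and −0.15 ± 0.0871 (−0.33 to 0.04; adjusted p = 1.00) with KynA. The KynA value had the smallest unadjusted p of the 9 genes in that comparison, at 0.112.

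TGFB2, the ligand first described in glioblastoma as a T-cell suppressor, read 8.31, 8.38, 8.32 and 8.46 with DMSO. With FICZ it read 8.22, 8.19, 8.75 and 8.32, and with KynA 8.23, 8.15, 8.36 and 8.35. FICZ 3 was the highest of the 12 arrays, and the other FICZ arrays lay below the DMSO mean. The FICZ mean of 8.37 ± 0.26 (SD, n = 4) therefore equalled the DMSO mean of 8.37 ± 0.0672 to 2 decimals, with a difference of 0.00 ± 0.112 (95% interval −0.24 to 0.24). Without FICZ 3 the difference was −0.13 (limma adjusted p = 0.479). With KynA all 4 arrays were below the DMSO mean, within its range or under it, at −0.10 ± 0.112 (−0.34 to 0.14).

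LTBP1, which anchors latent TGF-beta in the extracellular matrix, read 11.10, 10.92, 11.00 and 10.90 with DMSO. It read 11.15, 11.08, 11.16 and 10.80 with FICZ and 11.04, 11.04, 11.17 and 11.06 with KynA. All 4 KynA arrays were above the DMSO mean, and DMSO 1 lay above 3 of them. FICZ 4 was the lowest of the 12 arrays. The difference was 0.07 ± 0.0906 with FICZ (adjusted p = 0.767) and 0.09 ± 0.0906 with KynA (adjusted p = 1.00), and without FICZ 4 the FICZ value was 0.15.

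**Figure D2:**
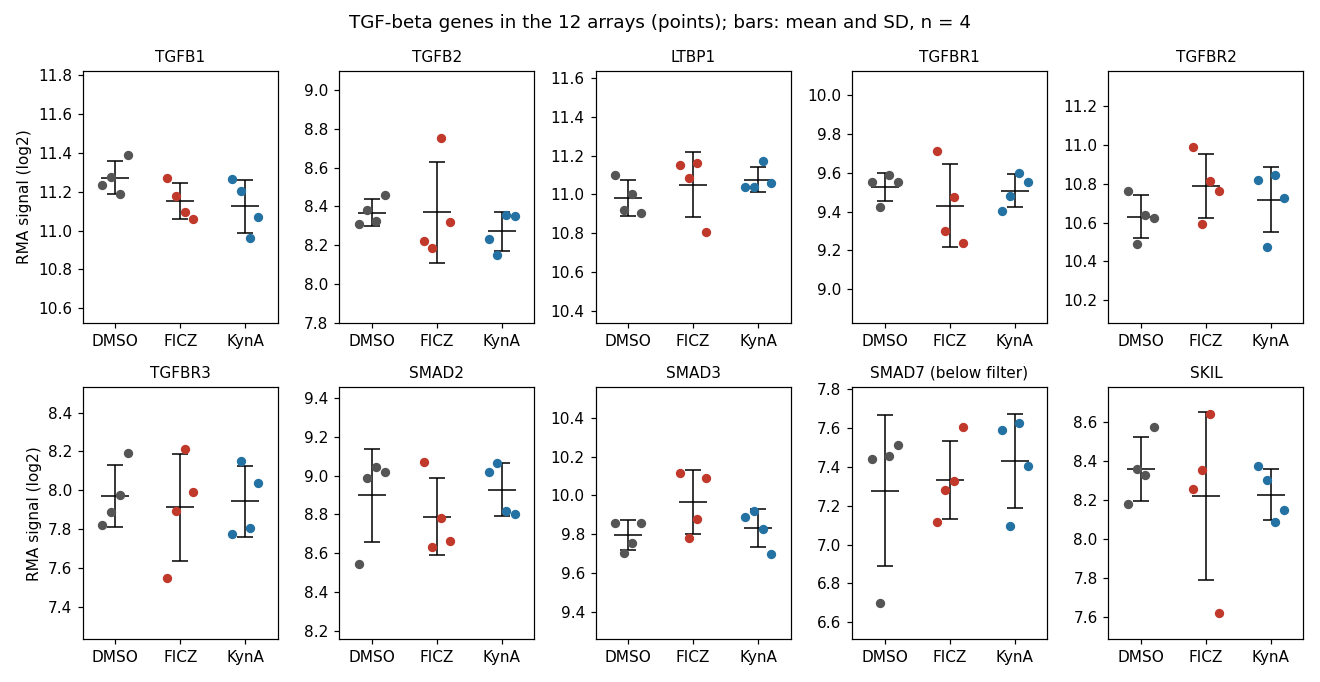
RMA signal on the log2 scale of each TGF-beta gene in the 12 arrays (points, replicates 1 to 4 from left to right in each group), with the mean and SD of each group (n = 4); every panel spans the same number of log2 units. The groups overlap in all 10 panels, and single arrays such as SKIL in FICZ 4 (7.62) and SMAD7 in DMSO 2 (6.70) lie far from the rest of their group.

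TGFBR1, the type I receptor kinase, read 9.55, 9.42, 9.59 and 9.55 with DMSO, 9.71, 9.30, 9.47 and 9.24 with FICZ and 9.40, 9.48, 9.60 and 9.55 with KynA. FICZ 1 was the highest and FICZ 4 the lowest of all 12 arrays, so the FICZ group enclosed the other groups. Its SD was 0.213 with FICZ, 0.0723 with DMSO and 0.0851 with KynA. The difference from DMSO was −0.10 ± 0.1 with FICZ (95% interval −0.31 to 0.12; limma adjusted p = 0.688) and −0.02 ± 0.1 with KynA (−0.23 to 0.19). The FICZ value was −0.19 without FICZ 1 and −0.03 without FICZ 4.

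TGFBR2, the ligand-binding type II receptor, read 10.77, 10.49, 10.64 and 10.62 with DMSO. With FICZ it read 10.99, 10.59, 10.82 and 10.76, and with KynA 10.82, 10.48, 10.85 and 10.73. Of the 4 arrays in each treated group, 3 lay above the DMSO mean and array 2 lay below it. The estimate was 0.16 ± 0.105 with FICZ (−0.07 to 0.38; limma adjusted p = 0.505) and 0.09 ± 0.105 with KynA (−0.14 to 0.31). Without FICZ 1 the FICZ value was 0.09.

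TGFBR3, or betaglycan, is a co-receptor that presents TGFB2 to TGFBR2. It was a dim member, and its 12 arrays ran from 7.55 to 8.21, with 11 of them above the brightness filter (the 25th percentile of the array). Both ends of that range were FICZ arrays, FICZ 1 and FICZ 3. Its differences were −0.06 ± 0.135 with FICZ (−0.35 to 0.23) and −0.03 ± 0.135 with KynA (−0.32 to 0.26).

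SMAD3, which binds DNA directly, had the largest estimate of the 9 genes with FICZ and the smallest p in the F-test over the 3 groups (unadjusted p = 0.178). It read 9.86, 9.70, 9.75 and 9.86 with DMSO and 10.12, 9.78, 9.88 and 10.09 with FICZ. The KynA arrays read 9.89, 9.92, 9.83 and 9.70. FICZ 1 and FICZ 4 lay above every DMSO and KynA array, FICZ 3 lay just above the DMSO range, and FICZ 2 lay within it. The difference was 0.17 ± 0.0915 with FICZ (−0.02 to 0.37; unadjusted p = 0.0795; limma adjusted p = 0.402) and 0.04 ± 0.0915 with KynA (−0.16 to 0.24). FICZ against KynA gave 0.13 (−0.06 to 0.33; adjusted p = 0.734).

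SMAD2, the other receptor-activated SMAD of this branch, read 8.54, 8.99, 9.04 and 9.02 with DMSO, 9.07, 8.63, 8.78 and 8.66 with FICZ and 9.02, 9.07, 8.82 and 8.80 with KynA. DMSO 1 was the lowest of all 12 arrays and stood 0.44 below its nearest neighbour in the group, while FICZ 1 was the highest. The FICZ difference was −0.11 ± 0.127 (−0.38 to 0.16; limma adjusted p = 0.725), and −0.23 without DMSO 1 (adjusted p = 0.425). With KynA it was 0.03 ± 0.127 (−0.24 to 0.30), and −0.09 without DMSO 1.

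SKIL, the corepressor SnoN, read 8.18, 8.36, 8.33 and 8.58 with DMSO, 8.26, 8.36, 8.65 and 7.62 with FICZ and 8.37, 8.30, 8.09 and 8.15 with KynA. FICZ held both the highest and the lowest array, and FICZ 4 alone lay under every other. That FICZ 4 value was below the brightness filter of its array (7.72). On the 11 other arrays SKIL lay above the filter. The within-group SD of SKIL, 0.278, was larger than that of 92.1% of genes tested. Its FICZ difference was −0.14 ± 0.169 (−0.50 to 0.22; limma adjusted p = 0.735) with all arrays and 0.06 without FICZ 4. The KynA difference was −0.13 ± 0.169 (−0.49 to 0.23).

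SMAD7 was too dim to be tested, since it lay below the 25th percentile of its array, 7.69 to 7.75, on all 12 arrays. It read 7.44, 6.70, 7.46 and 7.52 with DMSO, 7.12, 7.28, 7.33 and 7.60 with FICZ and 7.59, 7.10, 7.63 and 7.41 with KynA. In a fit without the filter its differences were 0.05 ± 0.18 with FICZ (−0.33 to 0.44; limma adjusted p = 0.927) and 0.15 ± 0.18 with KynA (−0.24 to 0.54; adjusted p = 0.999). A signal this close to the lower end of the table limits what can be read from it.

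The spread within groups was not even. FICZ had the largest SD of the 3 groups for 6 of the 9 tested genes (TGFB2, TGFBR1, TGFBR3, SMAD3, SKIL and LTBP1), beside 43% of all genes tested. It held 11 of the 18 highest and lowest arrays of the 9 genes, beside 40.6% for all genes. With FICZ 4 left out the count was also 6 of 9, beside 35.5% of all genes, but LTBP1 was no longer among them and TGFBR2 was. FICZ 1 and FICZ 4 each deviated in one direction for several genes but not for all. FICZ 1 was the highest array for TGFBR1, TGFBR2, SMAD2 and SMAD3 and the lowest for TGFBR3. FICZ 4 was the lowest for TGFBR1, SKIL and LTBP1 and the second highest for SMAD3.

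**Figure D3:**
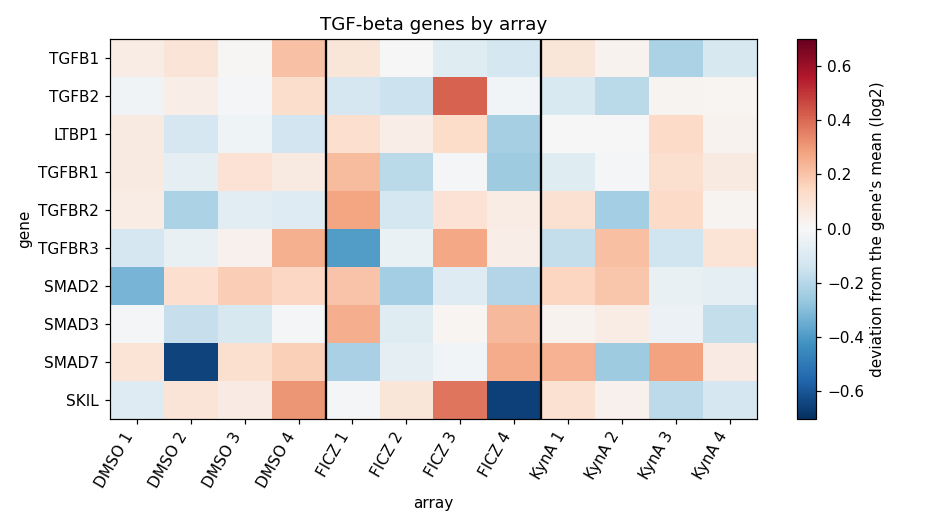
Deviation of each array from the mean of the gene over all 12 arrays, on the log2 scale (colour), for the 10 TGF-beta genes (rows) and the arrays by group (columns, 4 per group). The strongest colours are single cells, SKIL in FICZ 4 and SMAD7 in DMSO 2 (both low) and TGFB2 in FICZ 3 (high). No group has one colour over all genes. In paler colours, TGFB1 lay above its mean in all 4 DMSO arrays and SMAD3 below its mean in them.

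The promoter letters shown above can be set beside the differences. The 5 tested genes with GCGTG in the window had FICZ differences from −0.12 to 0.17 on the log2 scale, and the 4 tested genes without it from −0.14 to 0.16. These ranges were not tested against each other.

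Genes with profiles most like that of SMAD3 were found by the root mean square difference between log2 profiles over the 12 arrays, each centred on its own mean. The 5 nearest were CMTM6 (0.066), IQSEC2 (0.0742), IRS1 (0.0755), PTOV1 (0.0777) and ILK (0.0806), where the median over all other genes was 0.201 and SMAD3 itself varied by 0.126 about its mean. Their own differences with FICZ ran from 0.09 (PTOV1) to 0.17 (IQSEC2), and none of the 5 passed (adjusted p 0.438 to 0.61).

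**Figure D4:**
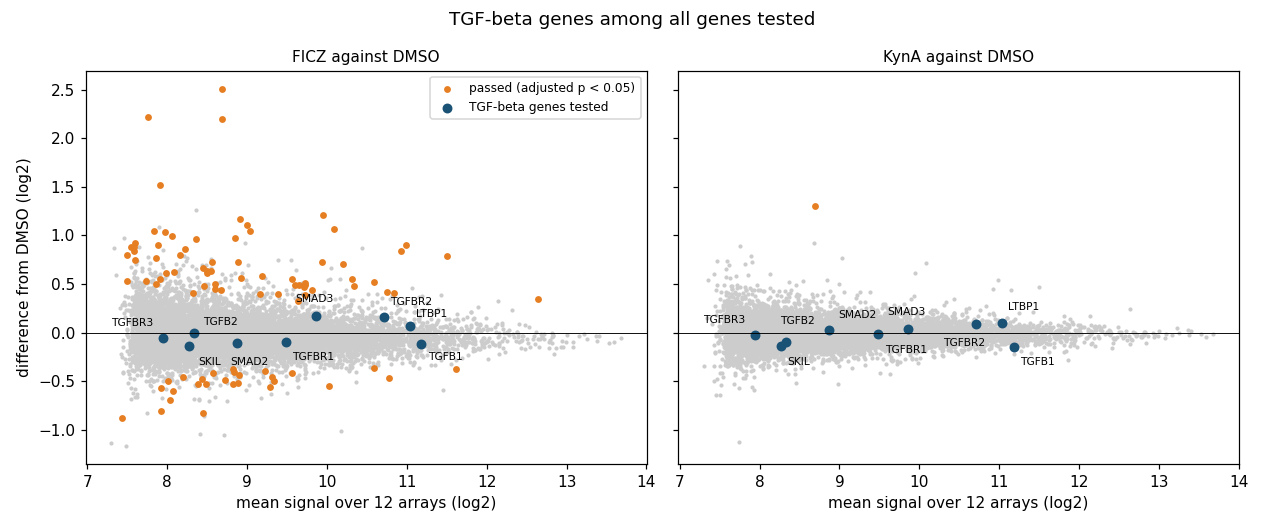
Mean log2 signal over the 12 arrays (x axis) against the log2 difference from DMSO (y axis) for all 10795 genes tested (grey), those that passed (orange) and the 9 TGF-beta genes (blue), for FICZ and KynA. The TGF-beta genes lie within −0.15 and 0.17, inside the grey cloud, and span signals from 7.94 (TGFBR3) to 11.18 (TGFB1).

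Among other genes that act on the ligand outside the cell, 1 of 9 tested rose with FICZ and 0 fell, where 0.602% of all genes were higher and 0.25% lower. The 1 was THBS1, thrombospondin 1, a matrix protein able to activate latent TGF-beta. It read 8.70, 7.87, 8.74 and 8.52 with DMSO and 9.73, 9.07, 9.95 and 9.51 with FICZ, so that every FICZ array lay above every DMSO array. The difference was 1.11 ± 0.236 (limma adjusted p = 0.0458), but with 1 array left out it passed in only 2 of 12 fits, when FICZ 2 or KynA 2 was dropped, and the adjusted p reached 0.115 when DMSO 4 was dropped. With KynA THBS1 gave 0.50 ± 0.236 (adjusted p = 1.00) and overlapped DMSO. FURIN, the protease that cuts the TGF-beta propeptide, gave −0.15 ± 0.0784 (adjusted p = 0.382), LTBP4 −0.15 ± 0.0918 (0.47), LRRC32, a surface anchor of latent TGF-beta, −0.22 ± 0.178 (0.601) and the integrin subunit ITGB5 −0.01 ± 0.0873 (0.977). Without DMSO 1 the LRRC32 value was −0.06. ITGB5 was named for its KynA value, 0.16 ± 0.0873 (unadjusted p = 0.0967; limma adjusted p = 1.00). TGFB3, ITGB6 and ITGB8 were below the filter. The list's median was −0.07 with FICZ and 0.00281 with KynA, and 0 of 9 passed with KynA. This list was chosen with earlier results of these data known, so its count beside the share of all genes is only descriptive.

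Of 7 other receptors and co-receptors tested, 0 passed with either ligand, where 0.852% of all genes did with FICZ and 0.00926% with KynA. At an unadjusted p under 0.05 there were 2 of 7 with FICZ and 0 with KynA, where the shares of all genes were 14.6% and 3.4%. BAMBI, a decoy receptor without a kinase, had the lowest value with FICZ, −0.66 ± 0.201 (−1.09 to −0.23; unadjusted p = 0.00508; limma adjusted p = 0.152), with 4 of 4 FICZ arrays below the DMSO mean and 8.70 as the highest FICZ array against 8.65 as the lowest DMSO array. The BAMBI signal in FICZ 4 (7.61) lay below the brightness filter of that array (7.72). Without FICZ 4 its FICZ difference was −0.47 (limma adjusted p = 0.331). The KynA value of BAMBI was −0.11 ± 0.201. The endothelial type I receptor ACVRL1 gave 0.49 ± 0.227 with FICZ (adjusted p = 0.337), ACVR1 0.16, ACVR1B −0.19 and the co-receptor CD109 0.15. ACVRL1 lay below the brightness filter in DMSO 1, DMSO 3, DMSO 4 and KynA 1. It was thus tested through DMSO 2 and the other treated arrays, which limits its place among the 2 with an unadjusted p under 0.05. ACVR1B lay below the filter in every FICZ array. ACVR1C was not analysed here. The list's median was −0.04 with FICZ and 0.04 with KynA.

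Of 15 other transducers, adaptors and inhibitors tested, 0 passed with either ligand, and 1 had an unadjusted p under 0.05 with each, where the shares of all genes were 14.6% with FICZ and 3.4% with KynA. The count of 1 in 15 is not above the background with FICZ and is a single gene with KynA. With FICZ this was SMAD9, a SMAD of the BMP branch, at −0.36 ± 0.133 (limma adjusted p = 0.23), lower than the DMSO mean in 4 of 4 arrays. With KynA it was PMEPA1, a TGF-beta-induced inhibitor of SMAD activation, at 0.26 ± 0.118 (adjusted p = 1.00), higher in 3 of 4 arrays, with 0.04 for FICZ. PMEPA1 lay below the brightness filter in DMSO 2, DMSO 3, DMSO 4, FICZ 3, FICZ 4 and KynA 3, which limits what can be read from it. SMAD1 gave 0.09 with FICZ and −0.16 with KynA, the corepressor TGIF1 0.15 and 0.03, and the SMAD phosphatase PPM1A −0.11 and −0.17. TGIF2 was not analysed here. The list's median was −0.04 with FICZ and 0.03 with KynA.

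Among genes known to respond to TGF-beta, 1 passed with FICZ and 0 with KynA. Of 21 tested, 0 rose and 1 fell with FICZ, where 0.602% of all genes were higher and 0.25% lower. At an unadjusted p under 0.05 there were 6, where the share of all genes was 14.6%. The 21 FICZ values were 10 positive and 11 negative, beside 4464 and 6331 for all genes, and their median was −0.02 on the log2 scale. With KynA 0 of 21 passed (2 at an unadjusted p under 0.05, where 3.4% of all genes were) and the median was 0.00464. The 1 that fell was ID3, which binds basic helix-loop-helix factors and keeps them off DNA, and which BMP induces and TGF-beta regulates. ID3 read 8.25, 8.20, 8.28 and 8.77 with DMSO and 7.87, 7.54, 7.65 and 7.68 with FICZ, without overlap, a difference of −0.69 ± 0.117 (limma adjusted p = 0.0121). Its KynA arrays read 8.13, 8.00, 7.99 and 8.04, between the other groups and apart from both, at −0.34 ± 0.117 from DMSO (adjusted p = 1.00). Without DMSO 4, its highest array, that KynA difference was −0.21. In FICZ 2, FICZ 3 and FICZ 4 the signal of ID3 lay below the brightness filter of the array (7.74, 7.73 and 7.72). ID3 was thus tested through the DMSO and KynA arrays and FICZ 1. Signals this dim limit what can be read from the size of its fall with FICZ.

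The relatives of ID3 had FICZ means below those of DMSO and did not pass. ID1 gave −0.51 ± 0.129 (limma adjusted p = 0.09) and ID2 −0.41 ± 0.0996 (0.0709), each with 4 of 4 FICZ arrays below the DMSO mean. MYC, which TGF-beta represses in epithelial cells, gave −0.39 ± 0.0889 (0.058), with 4 of 4 arrays below the lowest DMSO array. IL11, a cytokine that TGF-beta induces in tumour cells, gave 0.36 ± 0.127 (0.211). With KynA these values were −0.18 for ID1, −0.13 for ID2, −0.19 for MYC and 0.16 for IL11. SNAI1 was not analysed here, and TAGLN and CDKN2B were below the filter. The 16 other tested genes of the list had an adjusted p above 0.05 with both ligands. The list of response genes was also chosen with earlier results known, so its counts beside the shares of all genes are only descriptive.

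**Figure D5:**
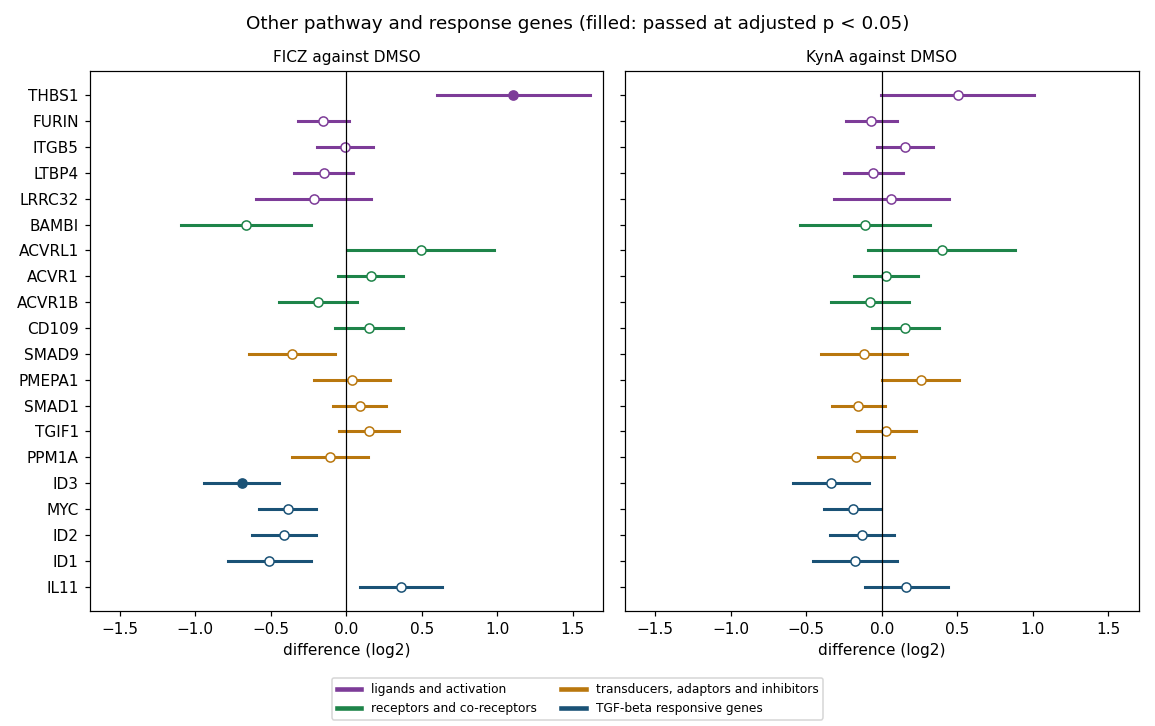
Log2 differences from DMSO (points; filled where the gene passed) with 95% intervals (lines) for 20 other TGF-beta pathway and response genes, coloured by list, with FICZ and KynA, n = 4 arrays per group. The filled points are THBS1 at 1.11 and ID3 at −0.69, both with FICZ.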

How the data were processed

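RNA of U-87MG cells was labelled for 12 Affymetrix whole-transcript arrays. The deposited table holds log2 signals, for which the submitters' processing notes name RMA and oligo without versions. It had 15759 transcript clusters, whose means over the arrays began at 6.50, so a lower limit on brightness may have been applied. Platform symbols, which can be old, were not updated. They gave 1 symbol to 13577 clusters, several to 744 and none to 1438.

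For a gene with several clusters (45 genes) the one with the highest mean was kept. Testing required a signal over the array's 25th percentile on 4 or more arrays, which left 10795 of 13530 genes. The limma fit used group means over all 12 arrays (9 residual and 5.19 prior degrees of freedom), two-sided moderated tests and Benjamini-Hochberg adjustment over all genes tested, with 0.05 as the threshold. Intervals are 95% intervals from that fit, whose median SE was 0.106. The number of arrays limits the precision. The procedure was tested on simulated data for FICZ against DMSO. Of 100 changed genes it recovered 69 at a log2 change of 0.5 and 99 at a change of 1, with 8 false calls each. Changes under 0.5 were not simulated, so this does not show how the smaller estimates here would fare.

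Named besides the 10 genes were the 5 with the smallest unadjusted p in each of 4 lists of related genes over the comparisons with DMSO, and any that passed. The genes, lists and motifs were chosen with earlier results of these data known. LTBP2 stands in 2 lists. Alternatives were other normalizations, filters, cluster rules and variance settings, array weights, fewer arrays, and the replicate number as a block. The tools were R 4.3.3, limma 3.58.1, Python 3.11.15, pandas 2.3.3 and matplotlib 3.10.9.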

Additional observations from a re-analysis of the deposited data

Results flagged for a closer look

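Of 93 groups of 4 arrays examined, 30 of them of the TGF-beta genes, 8 held an array whose gap to its nearest neighbour was large against the group's range by Dixon's criterion at the 95% level. Chance flags about 1 in 20. Among the TGF-beta genes, SMAD2 was low in DMSO 1 (8.54, nearest 8.99), SMAD7 was low in DMSO 2 (6.70, nearest 7.44) and LTBP1 was high in KynA 3 (11.17, nearest 11.06).

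Among the other pathway and response genes, BAMBI (9.33) and ID3 (8.77) were both high in DMSO 4. FURIN was low in DMSO 2 (8.84), ACVR1 was high in FICZ 1 (9.49) and ACVRL1 was low in KynA 1 (7.26). Without DMSO 4 the FICZ difference was −0.56 for ID3, and ID3 still passed, while its KynA difference went from −0.34 to −0.21.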

How the results depend on the processing

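None of the 9 tested TGF-beta genes passed in any comparison under the alternatives run for it. TGFB2, TGFBR3 and SKIL were too dim to be tested with the 50th percentile filter. Of the 558 differences of the 9 genes under the alternatives, 526 kept their direction and 32 changed it. Many of the 526 could not change, because several alternatives leave the estimate itself as it was. These are the other filters, cluster rule and variance settings, the replicate block, only the 8 arrays compared, and leaving out an array of the third group. The count of 526 therefore does not measure how stable the directions were. The lowest limma adjusted p was 0.309 (SMAD3 with FICZ, cyclic loess). The count of all genes that passed with FICZ, 92, became 140 with a trended and robust variance and 43 with only the 8 arrays compared, and ran from 42 (without DMSO 1) to 103 (without FICZ 3) when 1 array was left out. The count of 1 with KynA became 2 with the trended variance and ran from 1 to 2, and the count of 1 between FICZ and KynA became 2 with no filter. TGFB2 with FICZ turned to −0.000972 with arrays centred and −0.0198 with array weights. Between FICZ and KynA, SKIL turned to 0.00358 with loess and 0.0376 with weights, and LTBP1 to 0.00938 and 0.00533. ITGB5 with FICZ turned to 0.0333 with loess. The cause was not tested.

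Leaving out 1 array turned further small differences. With FICZ, TGFB2 ran from −0.127 to 0.0611, TGFBR3 from −0.158 to 0.0633, SKIL from −0.284 to 0.0585, ITGB5 from −0.0615 to 0.0425 and PMEPA1 from −0.0550 to 0.0992. With KynA, TGFBR1 ran from −0.0547 to 0.0151, TGFBR3 from −0.0968 to 0.0468, SMAD2 from −0.0901 to 0.0767, LTBP4 from −0.136 to 0.00430, LRRC32 from −0.0718 to 0.215, BAMBI from −0.178 to 0.0489, ACVR1 from −0.0610 to 0.105, ACVR1B from −0.143 to 0.00828 and TGIF1 from −0.0300 to 0.0875. Between FICZ and KynA, TGFB1 ran from −0.0277 to 0.0741, TGFB2 from −0.0297 to 0.158, TGFBR2 from −0.00794 to 0.138, TGFBR3 from −0.131 to 0.0905, SKIL from −0.150 to 0.192 and LTBP1 from −0.0639 to 0.0562.

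THBS1 with FICZ stayed between 0.91 and 1.27 on the log2 scale with 1 array left out. It missed the threshold with no filter (1.11, limma adjusted p = 0.0699), array weights (1.06, 0.0617) and only 8 arrays (1.11, 0.0521), and passed under 6 others, at 0.0252 with the replicate block. ID3 missed it with only 8 arrays (0.0510). MYC passed with the 50th percentile filter (0.0362), the trended variance (0.0299) and the replicate block (0.0421), ID2 with that filter (0.0463), and ID1 with the trended variance (0.0450) and without DMSO 2 (0.0303). ID3, ACVRL1, ACVR1B, SMAD9, PMEPA1, SMAD1, PPM1A and IL11 have no value with the 50th percentile filter. A fit with a replicate block (the array number) gave 138 passing genes for FICZ and 1 in each other comparison. Arrays of the same number correlated at −0.134 to 0.213 in their deviations from the group means, with a median of 0.0964 beside −0.0386 for other pairs, and 7 of 12 correlated best with their own number, a hint from the data. Only 6 of the 12 same-numbered pairs were over 0.1 and the labels name nothing the numbers share, so they were not taken to pair the samples.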
